A study of Mus musculus with 12 samples.

Results

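The nuclear genes of the mitochondrial respiratory chain were followed in 12 RNA-seq libraries of mouse ileum. The genes were chosen by symbol alone: protein-coding rows of the counts file whose symbol begins with Nduf, Sdha to Sdhd, Uqcr, Cox4i, Cox5, Cox6, Cox7, Cox8 or Atp5. The rule used no measured value, but the genes were chosen with earlier results of these data known. It took 98 genes (the members) of 54838 rows, and 93 of the members passed the filter on low counts, as did 15938 genes in all. By complex these were 36 genes of complex I (36 tested), 4 of complex II (4 tested), 8 of complex III (8 tested), 20 of complex IV with Ndufa4 and Ndufa4l2 (16 tested) and 18 of ATP synthase (17 tested). The prefixes also took genes that are not subunits of the finished complexes. These were the 8 complex I assembly factors named Ndufaf and the 4 complex II assembly factors named Sdhaf, all tested. Figures over all members include them, and they have their own values where the members are split by complex. Subunits under other names, such as Cyc1 of complex III, lie outside the rule. A further 13 rows with these prefixes are not protein-coding, most of them processed pseudogenes, and were left out.

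Female C57BL/6J mice, 8 to 14 weeks old, drank normal water or 25 mM ZnSO4 for 7 days. They were then injected with 200 µg of dexamethasone (Dex), a synthetic glucocorticoid, in PBS, or with PBS alone, and the ileum was taken 2 h later. The 4 groups of 3 mice were water + PBS, water + Dex, ZnSO4 + PBS and ZnSO4 + Dex. Every library was made from a piece of whole ileum, so all cell types of the gut wall contribute to each value.

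The respiratory chain lies in the inner mitochondrial membrane. Complexes I and II pass electrons from NADH and succinate to ubiquinone, complex III passes them on to cytochrome c, complex IV passes them to oxygen, and ATP synthase uses the proton gradient that complexes I, III and IV build. Most subunits are encoded in the nucleus and a few of the central ones in mitochondrial DNA, except in complex II, whose subunits are all nuclear. NRF1, the GA-binding protein (GABP) and the oestrogen-related receptors (ERR), together with the coactivator PGC-1alpha, are known activators of these genes.

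Of the members, 97 were matched to RefSeq by gene identifier, or by name where that gave no match. Promoters of RefSeq (GRCm38.p6, 250 bases before and 50 after the start) were found for 80 of them, 85 promoters in all. The letters GCGCA and GCGC 1 base apart, a core of NRF1 sites, stood in 25.9% of the members' promoters and in 4.6% of 32851 promoters of all genes. The letters CCGGAAG, a core of GABP sites, stood in 24.7% and 8.86%. The ERR half-site TCAAGGTCA stood in 2.35% and 0.423%, and the palindromic glucocorticoid receptor letters GNACA and TGTNC 3 bases apart in 0 of 85 and 0.475%. Both strands were read, and a base could count for more than 1 motif. By member, 37 of 80 had the NRF1 or the GABP letters and 5 had both. At least 1 of these motifs was found in 11 of 32 complex I genes, 3 of 3 of complex II, 3 of 5 of complex III, 3 of 14 of complex IV and 9 of 15 of ATP synthase. A match is a description of the letters and not a site. Promoters are printed for 3 genes, with matches in capitals. Ndufc2 had the largest change of any called member and holds none of the motifs. Ndufs3 holds the GABP letters on both strands. Sdhd, called in no comparison and shown because it holds both of the more frequent motifs, has the NRF1 letters and, on the opposite strand, the GABP and ERR letters.
Ndufc2 (chr7:97399753-97400052, plus strand): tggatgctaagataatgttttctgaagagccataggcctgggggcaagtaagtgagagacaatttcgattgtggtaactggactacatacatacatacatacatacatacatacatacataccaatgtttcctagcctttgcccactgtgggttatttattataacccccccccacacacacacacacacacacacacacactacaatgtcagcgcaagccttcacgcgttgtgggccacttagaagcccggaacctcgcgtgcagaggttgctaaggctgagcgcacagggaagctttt
Ndufs3 (chr2:90904672-90904971, minus strand): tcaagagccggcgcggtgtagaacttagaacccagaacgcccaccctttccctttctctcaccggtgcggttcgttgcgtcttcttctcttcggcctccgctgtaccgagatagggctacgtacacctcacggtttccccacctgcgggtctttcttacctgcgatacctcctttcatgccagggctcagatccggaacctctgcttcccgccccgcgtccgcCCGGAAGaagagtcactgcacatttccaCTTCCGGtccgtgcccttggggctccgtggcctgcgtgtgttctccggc
Sdhd (chr9:50603800-50604099, minus strand): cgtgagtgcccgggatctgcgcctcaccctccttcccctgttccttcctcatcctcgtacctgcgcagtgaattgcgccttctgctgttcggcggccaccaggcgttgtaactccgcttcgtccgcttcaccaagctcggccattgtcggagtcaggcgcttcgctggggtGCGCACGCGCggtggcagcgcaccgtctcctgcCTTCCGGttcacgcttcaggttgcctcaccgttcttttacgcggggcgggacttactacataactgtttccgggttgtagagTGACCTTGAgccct

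The libraries held 10760132 to 11827487 counted reads, and the members took 1.29% to 1.55% of them. The share was 1.38% ± 0.099 (SD, n = 3) in water + PBS, 1.37% ± 0.011 in water + Dex, 1.36% ± 0.075 in ZnSO4 + PBS and 1.44% ± 0.11 in ZnSO4 + Dex. Markers of other cells differed between the libraries. Summed B cell markers ranged from 11.6 to 611 CPM (counts scaled to the same total in each library), and enterocyte markers were at 11798 CPM in ZnSO4 + Dex replicate 2 against 21812 to 31585 in the other libraries. Summed skeletal muscle markers were at 10.7 to 16.7 CPM in ZnSO4 mice and at 42.1 to 179 in water mice, a difference carried by Acta1 alone (averaged ZnSO4 LFC -4.44, adjusted p = 2.82e-05). The other 2 tested markers of that list, Ckm and Mylpf, had averaged LFCs of 0.025 and -0.020, and Myh1, Myh4 and Mb were at 0 in all libraries. T cell markers were lower in every ZnSO4 library (80.8 to 112 CPM) than in every water library (191 to 379 CPM). In such bulk samples, fewer cells of a type and less RNA per cell cannot be told apart.

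Levels were compared between genes as normalised counts (counts scaled to a common library size) per kilobase of the principal transcripts. By this measure ATP synthase genes stood highest, with a median of 2552 over 17 tested genes, followed by complex IV (2254), complex III (2167) and complex II (1936). Complex I genes had a median of 879, the complex I assembly factors one of 99.1 and the complex II assembly factors one of 82.3. The highest single level was that of Atp5b, the catalytic beta subunit of ATP synthase, at 10534 per kilobase. Cox4i1, a nuclear subunit of complex IV, led its complex at 6756. Uqcrh, the hinge protein of complex III, led at 4908, and Sdhd, a membrane anchor of complex II, at 2531. In complex I the highest was Ndufa6, an accessory subunit, at 2095. The lowest tested members of these complexes were Atp5s at 62.7, Ndufa4l2 at 11.8, Uqcrq at 1626, Sdhc at 668 and Ndufb2 at 97.3 per kilobase. Atp5s is a factor related to ATP synthase rather than one of its core subunits, and the 2 principal transcripts of Ndufb2 average 2413 bases, the length its level was divided by. Among the assembly factors the levels ran from 71.7 (Ndufaf4) to 246 (Ndufaf8) for complex I and from 14.7 (Sdhaf3) to 153 (Sdhaf4) for complex II.

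**Figure D1:**
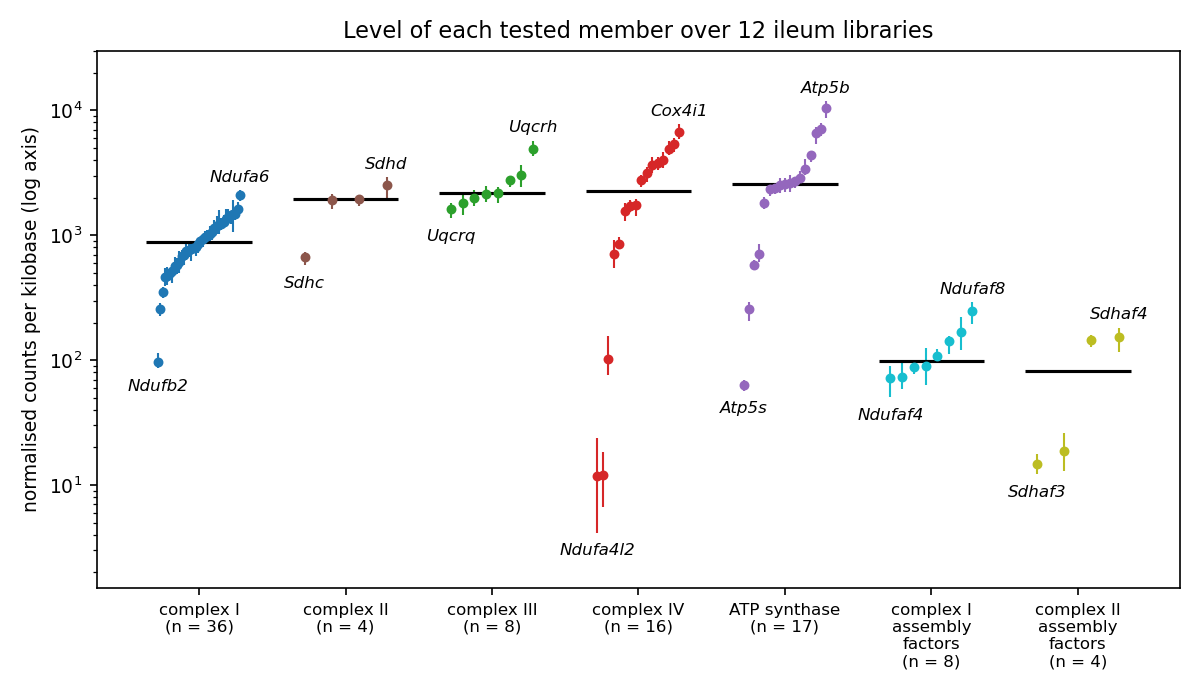
Level of each of the 93 tested members, as normalised counts per kilobase on a log axis, in columns by complex; points are means over 12 libraries, vertical lines run from the lowest to the highest library, black bars are medians of the column, and the highest and lowest gene of each column is named. Both columns of assembly factors lie at or below 246 per kilobase, and the medians of the subunit columns lie between 879 and 2552.

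Genes that share long stretches with other genes are uncertain in level, since reads with more than 1 position were left out. Atp5g2 had 87.7% of its 31-base stretches in other annotated genes, Atp5l 69.6%, Cox7c 55.7%, Uqcrb 54.3%, Atp5h 49.4%, Ndufs3 49.3% and Atp5o 46.4%. Of the 5 members not tested, Cox7b2 and Cox8c, known from testis, had 0 counts in every library, as did ENSMUSG00000116933, a second row under the symbol Atp5o whose exons all overlap Atp5o and Donson. Cox6a2, the heart and muscle form of subunit 6a, had 0 to 5 counts, and Cox8b, another muscle form, had 0 to 7 counts.

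The isoform pairs showed one dominant gene in most cases, here as shares of the summed level per kilobase over 12 libraries. Cox4i1 made up 99.8% of the Cox4i pair, with Cox4i2, known from lung, at 0.18%. Cox6a1, the form of most tissues, made up 99.9% of its pair, Cox6b1 97.5% beside the testis form Cox6b2 (2.46%), Cox7b 100% and Cox8a 99.8%. Ndufa4 stood at 99.7% beside Ndufa4l2, a gene known to respond to hypoxia, at 0.327%. The 3 forms of subunit 7a were more even, with Cox7a2 at 66.9%, Cox7a2l at 18.1% and the muscle form Cox7a1 at 15%. Cox7a1 had 216 to 337 raw counts per library, so the muscle form was well above the level of Cox6a2 and Cox8b. Of the 3 genes that encode the same mature c subunit of ATP synthase, Atp5g3 made up 88.1%, Atp5g2 8.76% and Atp5g1 3.15%. These shares are uncertain, since 87.7% of the 31-base stretches of Atp5g2 occur in other genes, against 13.9% for Atp5g1 and 0% for Atp5g3. They also depend on the lengths used. Before division by length Atp5g1 had more normalised counts than Atp5g2, a mean of 684 against 417. Its level was divided by 2666 bases, the average of its 4 principal transcripts, and that of Atp5g2 by 586. Cox5a and Cox5b are not alternatives but 2 subunits of each complex IV, and their levels were 1746 and 1573 per kilobase. The leading gene of each family was the same in all 12 libraries, with shares that ranged at most from 63.3% to 70.6% (Cox7a2).

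In most mice the medians of the 5 complexes deviated to the same side, and in some they did not. For each library the median deviation of the tested members from their own means over 12 libraries was taken on the log2 CPM scale. It was 0.096, -0.073 and -0.10 in the 3 water + PBS mice, 0.059, 0.043 and 0.059 in water + Dex, -0.065, -0.19 and 0.023 in ZnSO4 + PBS, and -0.044, 0.040 and 0.13 in ZnSO4 + Dex. The same median over all genes tested lay between -0.013 and 0.022 in every library. In water + PBS replicate 1, 76 of 93 members lay above their mean, and in ZnSO4 + PBS replicate 2 only 9 did. In the first of these mice the medians of the 5 complexes lay between 0.067 and 0.16, in the second between -0.23 and -0.18. Replicates 2 and 3 of water + PBS lay below 0 in all 5 complexes, opposite to replicate 1 of their own group. In ZnSO4 + PBS replicate 3 the medians ran from -0.062 (complex II) to 0.051 (complex IV). In ZnSO4 + Dex replicate 2 they ran from -0.021 (complex II) to 0.07 (complex I). The SD of the family median between mice of a group was 0.086. The 3 water + Dex mice lay close together and above all 3 ZnSO4 + PBS mice, and the other pairs of groups overlapped.

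**Figure D2:**
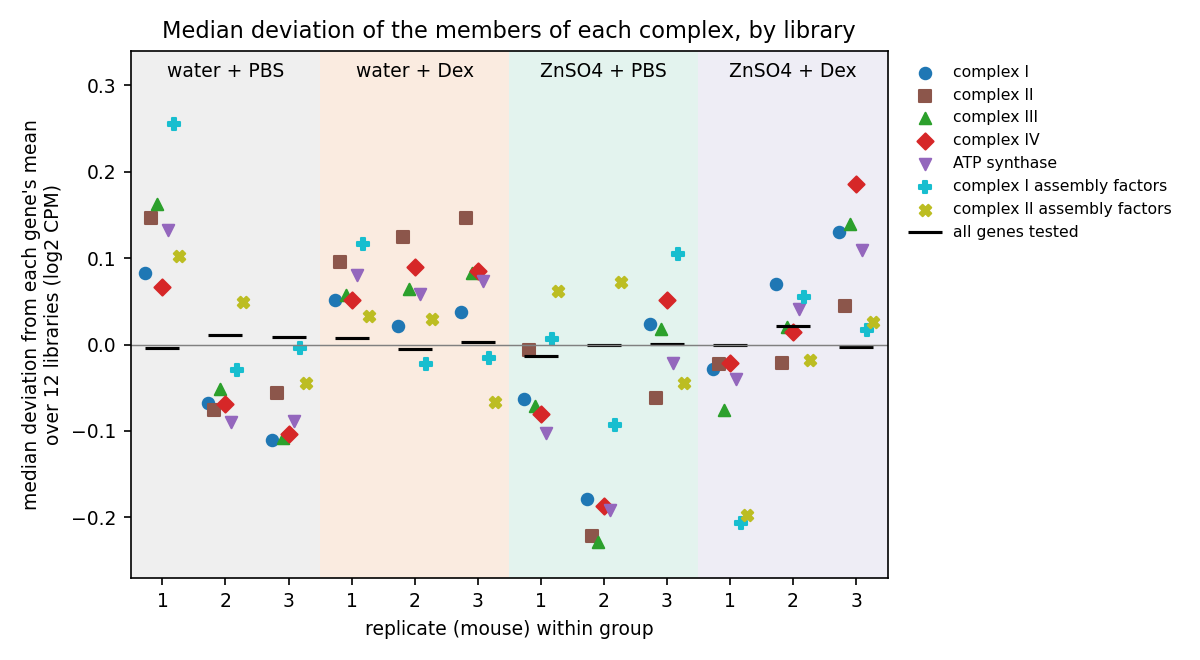
Median deviation of the tested members of each complex from their mean over 12 libraries (log2 CPM), for each library; symbols are complexes or assembly factors, black bars are all genes tested, and shading marks the groups. The 5 complexes all lie high in water + PBS replicate 1 and low in ZnSO4 + PBS replicate 2. In ZnSO4 + PBS replicate 3 they lie on both sides of 0, while all genes tested stay near 0 in every library.

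Single members varied little. The median SD of log2 CPM within groups was 0.111 over the members and 0.190 over all genes tested, but 0.118 over genes of the middle range of the members' levels, so genes of similar level varied about as much. Changes are given as LFC, the log2 fold change fitted by edgeR, and a gene was called at a Benjamini-Hochberg adjusted p under 0.05 over all genes tested. In the Dex effect averaged over water and ZnSO4 mice, 89 of 93 members had a 95% interval of the LFC inside a 1.5-fold change in either direction, against 61.9% of all genes tested. In the averaged ZnSO4 effect it was also 89 of 93, against 64.4%. This criterion was chosen after the values had been seen, and no share was taken over genes of similar level.

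Dex was followed by small rises in 6 members, 4 of complex I, 1 of complex IV and 1 of ATP synthase. Averaged over water and ZnSO4 mice, the adjusted p passed the threshold for 6 of 93 members upward and 0 downward (edgeR; 18 upward and 0 downward at an unadjusted p under 0.05, as were 16% and 17.4% of all genes; DESeq2 called 6 in all). Of all genes tested, 10.4% were called upward and 11.2% downward. With the further cut-off of an LFC above 0.8 in size, 0 of 93 members were called, against 3.67% of all genes upward and 2.64% downward. The median LFC of the members was 0.092, with 77 of 93 above 0, beside a median of -0.0014 and 49.8% above 0 over all genes tested. The median stayed above 0 with RLE (0.089) and upper-quartile factors (0.084), and without each library in turn (0.061 to 0.11). Over the 81 members that are not assembly factors the median was 0.096, with 76 above 0. Of the 6 calls, those of Ndufc2 and Ndufa7 remained in every alternative that tested the adjusted p alone. The number of calls fell to 2 without water + Dex replicate 3 or without ZnSO4 + PBS replicate 2. It rose to 9 without water + PBS replicate 1, and fell to 3 without water + PBS replicate 2 or 3, water + Dex replicate 1, ZnSO4 + PBS replicate 1 or ZnSO4 + Dex replicate 3. With the B cell markers as a covariate, an alternative chosen after seeing the data, 2 members were called. B cell markers lay between 29.1 and 611 CPM in water + PBS, 14.7 and 221 in water + Dex, 11.6 and 463 in ZnSO4 + PBS and 11.9 and 66.7 in ZnSO4 + Dex, and their part in the other 4 calls was not tested beyond this fit.

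Ndufc2 encodes a small accessory subunit of the membrane arm of complex I (chromosome 7, 97400003 to 97407802, plus strand, mm10). Its normalised counts were 951, 860 and 800 in water + PBS and 1299, 1228 and 1221 in water + Dex. They were 756, 729 and 886 in ZnSO4 + PBS and 1104, 1147 and 1141 in ZnSO4 + Dex. Every Dex mouse lay above every PBS mouse. Ndufc2 rose after Dex by an LFC of 0.52 (SE 0.086, adjusted p = 0.00236) in water mice and of 0.52 (SE 0.086, adjusted p = 0.00183) in ZnSO4 mice, and averaged over both by 0.52 (SE 0.061, 95% interval 0.39 to 0.65, adjusted p = 8.20e-05), a 1.43-fold change. It was the only member called in water mice, where 5.41% of all genes tested were called upward and 4.51% downward. All 3 calls remained in every alternative tried with the adjusted p alone. The next largest values in water mice were those of Ndufa4l2 (0.48, adjusted p = 0.589) and Cox6b2 (0.36, adjusted p = 0.404), neither of them called. Against the other complex I genes, Ndufc2 had 27.9 to 29.6 counts per 1000 of theirs in water + PBS, 38.1 to 41.3 in water + Dex, 25.7 to 28.5 in ZnSO4 + PBS and 34.3 to 36.9 in ZnSO4 + Dex, so its share of the complex I counts separated Dex from PBS in both drinking groups. None of its 31-base stretches occurred in other annotated genes, and no exon overlapped another gene. Of its neighbours on the chromosome, Alg8, a glucosyltransferase gene upstream, rose by an averaged LFC of 0.30 (adjusted p = 0.0252). Thrsp and Kctd14 downstream had averaged LFCs of 0.61 (adjusted p = 0.584) and 0.14 (adjusted p = 0.41).

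Ndufa7, another accessory subunit of complex I (chromosome 17, 33824572 to 33838317, plus strand), had 543, 577 and 564 normalised counts in water + PBS and 642, 618 and 683 in water + Dex. In ZnSO4 + PBS it had 617, 600 and 651, and in ZnSO4 + Dex 685, 716 and 834. The Dex mice lay above the PBS mice of the same drinking water, and the ZnSO4 mice above the water mice with the same injection. The averaged LFC was 0.23 for Dex (SE 0.057, adjusted p = 0.0124) and 0.18 for ZnSO4 (SE 0.057, adjusted p = 0.0656), so Dex passed the threshold and ZnSO4 did not. Of its 31-base stretches, 10.6% occurred in other genes.

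Ndufs3, a core subunit of the arm that carries electrons from NADH (chromosome 2, 90894634 to 90904827, minus strand), had 623, 557 and 552 normalised counts in water + PBS and 706, 628 and 638 in water + Dex. It had 545, 519 and 560 in ZnSO4 + PBS and 584, 651 and 622 in ZnSO4 + Dex. The Dex mice lay above the PBS mice within each drinking group by a narrow margin. The averaged LFC was 0.19 (SE 0.055, adjusted p = 0.0278), and the call was lost in 10 alternatives. Ndufa10, an accessory subunit (chromosome 1, 92439010 to 92473860, minus strand), had 1488, 1424 and 1322 in water + PBS, 1640, 1467 and 1789 in water + Dex, 1397, 1268 and 1524 in ZnSO4 + PBS, and 1498, 1656 and 1643 in ZnSO4 + Dex. Its groups overlapped in both drinking groups. The averaged LFC was 0.20 (SE 0.065, adjusted p = 0.0464), and the call was lost in 13 alternatives.

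Cox4i1 (chromosome 8, 120668222 to 120674207, plus strand) had 4951, 4815 and 4685 normalised counts in water + PBS and 5420, 5508 and 5648 in water + Dex. It had 4868, 4474 and 4902 in ZnSO4 + PBS and 5083, 5025 and 5829 in ZnSO4 + Dex. The groups did not overlap within either drinking water. The averaged LFC was 0.18 (SE 0.057, adjusted p = 0.0421), and the call was lost in 15 alternatives. Atp5d encodes the delta subunit of the catalytic part of ATP synthase (chromosome 10, 80138632 to 80145818, plus strand). It had 3355, 3176 and 3072 in water + PBS, 3649, 3548 and 3728 in water + Dex, 3089, 2938 and 3304 in ZnSO4 + PBS, and 3426, 3566 and 3836 in ZnSO4 + Dex. All Dex mice lay above all PBS mice of either drinking water. The averaged LFC was 0.20 (SE 0.052, adjusted p = 0.0172), and the call was lost in 4 alternatives.

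**Figure D3:**
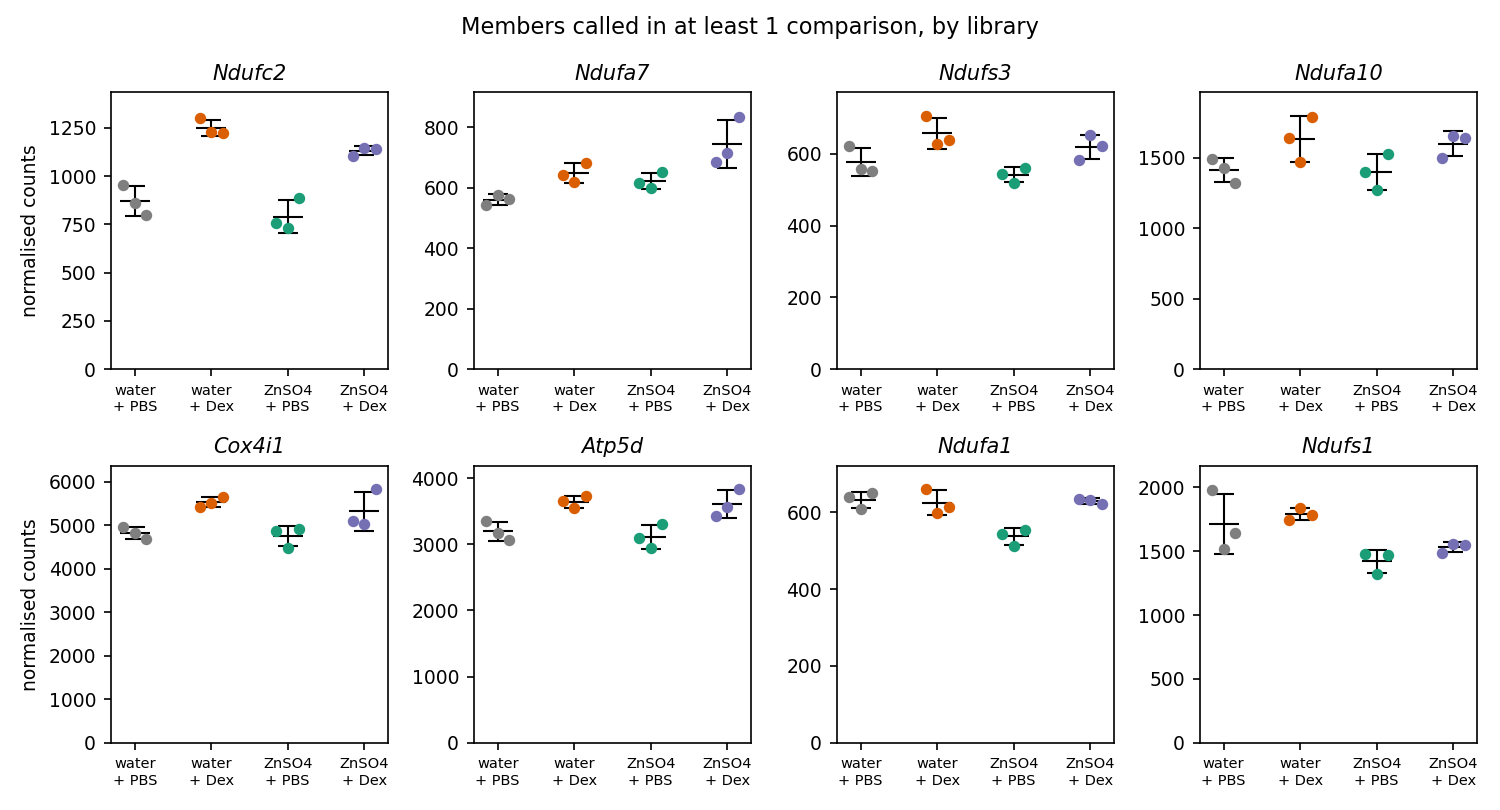
Normalised counts (axis from 0) of the 8 members called in at least 1 comparison, by group; points are single mice and black bars are the mean ± SD of 3 mice. Ndufc2 is at 1104 to 1299 in all 6 Dex mice and at 729 to 951 in all 6 PBS mice, while the other genes differ by smaller steps.

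In ZnSO4 mice alone, Dex was followed by a called rise in Ndufc2 and Ndufa1, 2 of 93 members, where 6.65% of all genes tested were called upward and 7.08% downward. Ndufa1, a small X-linked subunit of the membrane arm that is needed for assembly (37187588 to 37191163, minus strand), had 544, 513 and 554 normalised counts in ZnSO4 + PBS and 635, 632 and 622 in ZnSO4 + Dex. In water + PBS it had 639, 608 and 650, and in water + Dex 661, 599 and 614. The ZnSO4 + PBS mice were therefore below all 9 others. The LFC of Dex was 0.23 in ZnSO4 mice (SE 0.064, adjusted p = 0.0345) and -0.018 in water mice (SE 0.064, adjusted p = 0.907), and the difference between them was 0.25 (95% interval 0.049 to 0.44, adjusted p = 0.952). The LFC of ZnSO4 in PBS mice was -0.24 (SE 0.064, adjusted p = 0.0605). The call of Ndufa1 was lost in 13 alternatives, and 1 member, Ndufc2, was called without water + PBS replicate 1, water + Dex replicate 2 or 3, any of the ZnSO4 + PBS mice, or ZnSO4 + Dex replicate 2 or 3. Cox6b2 (LFC 0.33, adjusted p = 0.421) and the complex II assembly factor Sdhaf4 (-0.27, adjusted p = 0.279) had the next largest values in this comparison.

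Split by complex, the averaged Dex values of the subunit genes leaned upward and those of the assembly factors did not. The LFC was above 0 for 32 of 36 genes of complex I (median 0.088), 4 of 4 of complex II (0.095), 8 of 8 of complex III (0.094), 16 of 16 of complex IV (0.11) and 16 of 17 of ATP synthase (0.097). It was above 0 for 1 of 8 complex I assembly factors (median -0.067) and 0 of 4 complex II assembly factors (-0.078). With upper-quartile factors these counts were the same except for complex III (7 of 8). Without each library in turn, 0 to 2 of the 12 assembly factors and 70 to 78 of the 81 other members lay above 0. No assembly factor was called (lowest adjusted p = 0.211, Ndufaf5, LFC -0.23, 95% interval -0.50 to 0.035). Members of a complex share their libraries, and the shared shifts of single mice described above can move many of them at once. These counts are therefore not counts of independent genes.

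**Figure D4:**
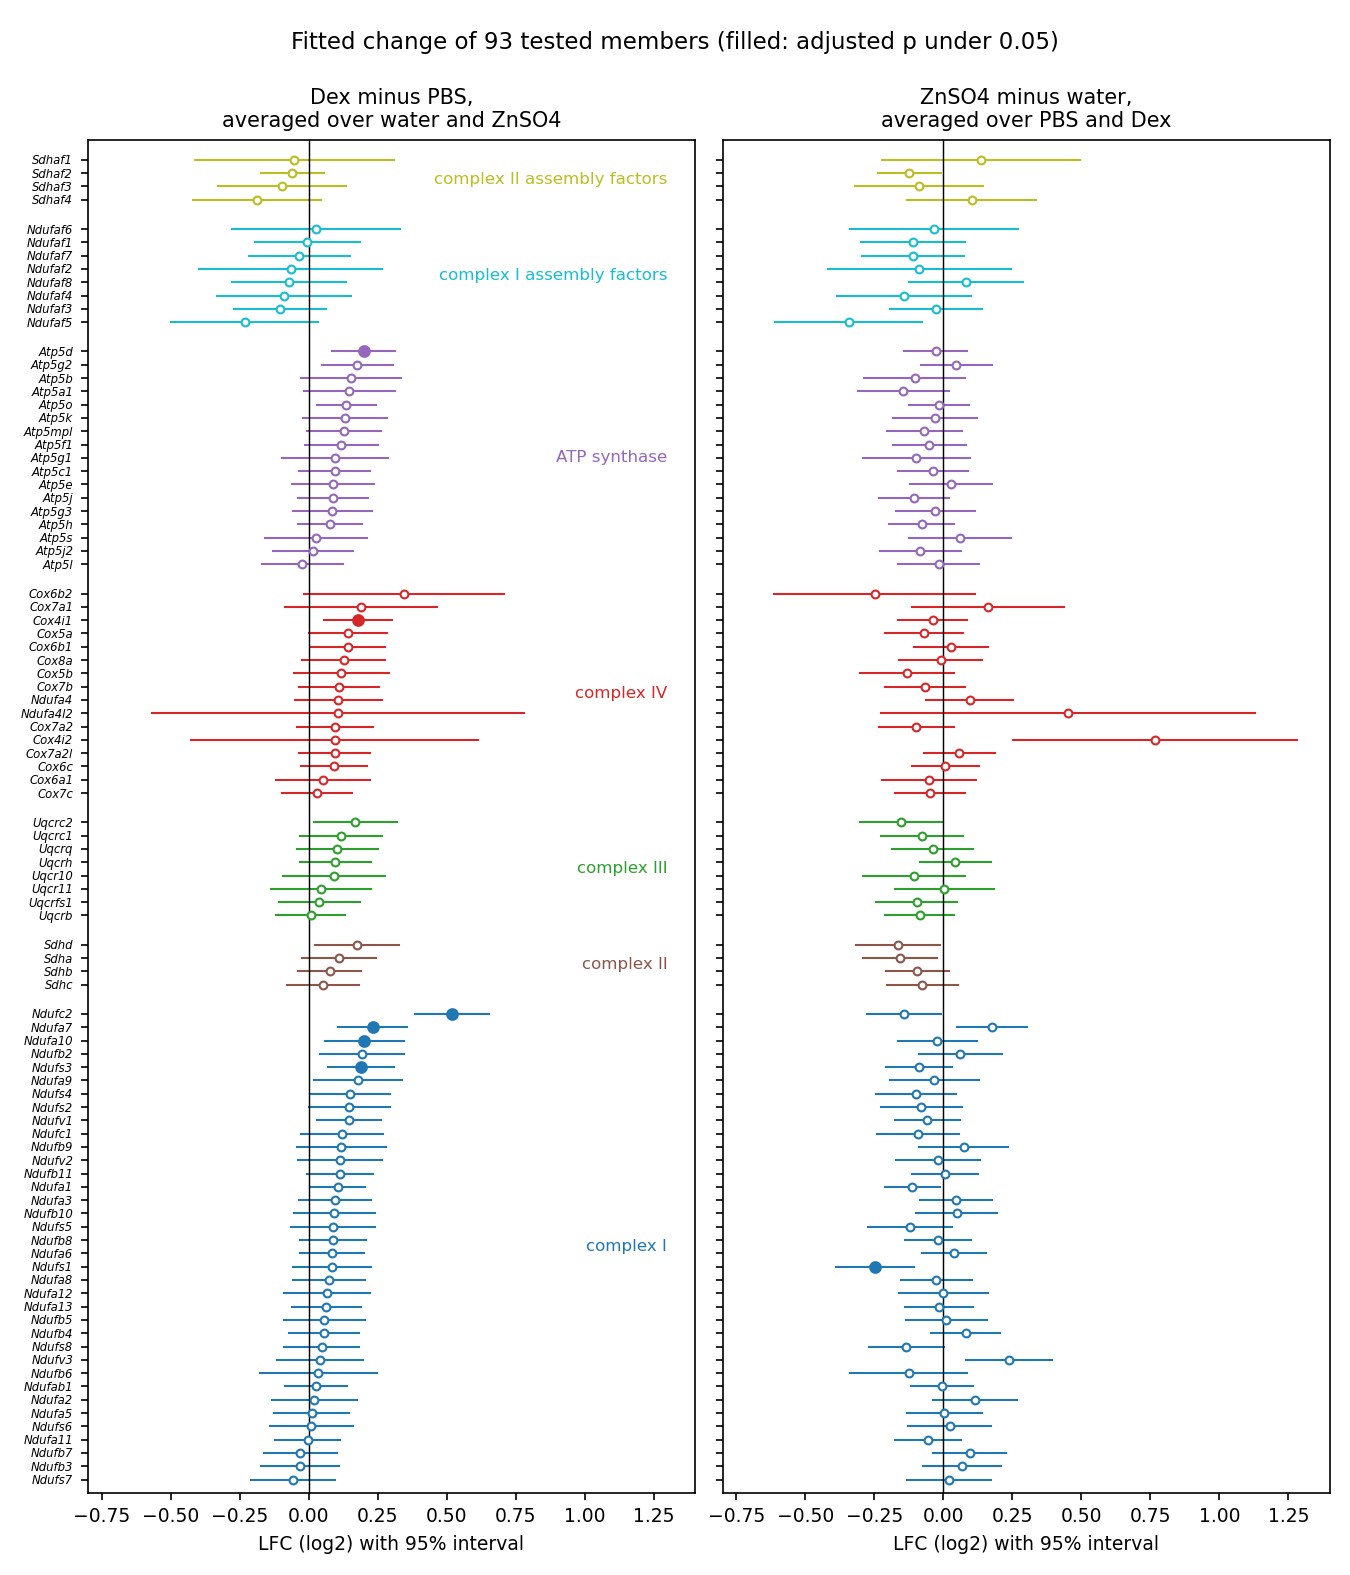
Fitted LFC (points) and 95% interval (lines) of each of the 93 tested members, by complex, for the averaged Dex effect on the left and the averaged ZnSO4 effect on the right; filled points have an adjusted p under 0.05. On the left, 6 points are filled and Ndufc2 stands furthest to the right, and on the right the only filled point is Ndufs1 at -0.25.

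ZnSO4 was followed by a called change in a single member, Ndufs1, and that only when PBS and Dex mice were averaged. In PBS mice, 0 of 93 members were called, where 2.11% of all genes tested were called upward and 2.54% downward (edgeR; 4 members downward and 0 upward at an unadjusted p under 0.05, against 10.3% and 9.54% of all genes; DESeq2 called 0). The lowest adjusted p was that of Ndufa1 given above. In Dex mice, 0 of 93 were called as well, against 1.83% upward and 2.54% downward (3 members upward and 1 downward at an unadjusted p under 0.05, against 9.56% and 9.57% of all genes; DESeq2 called 0). Averaged over PBS and Dex, 1 member was called downward and 0 upward, against 6.24% of all genes upward and 6.52% downward. The median LFC of the members was -0.060 in PBS mice (20 of 93 above 0), -0.014 in Dex mice (42 of 93) and -0.035 averaged (32 of 93), beside -0.013, 0.0074 and -0.0046 over all genes tested. These medians had no settled direction. Without water + PBS replicate 1 the PBS value was 0.024 and the averaged value 0.0055, with upper-quartile factors the Dex value was 0.031 and the averaged value 0.00073, and without ZnSO4 + Dex replicate 1 the Dex value was 0.033. Over the 81 members that are not assembly factors the median was -0.048 in PBS mice (18 above 0), -0.014 in Dex mice (37) and -0.029 averaged (29).

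The called member was Ndufs1, the largest core subunit of complex I (chromosome 1, 63143596 to 63176833, minus strand). It had 1977, 1520 and 1645 normalised counts in water + PBS and 1744, 1838 and 1783 in water + Dex, against 1479, 1318 and 1467 in ZnSO4 + PBS and 1485, 1558 and 1552 in ZnSO4 + Dex. The ZnSO4 mice lay below the water mice with the same injection, narrowly so in PBS mice. The averaged LFC was -0.25 (SE 0.065, adjusted p = 0.0285), or a ratio of 0.843. The call was lost in 8 alternatives, among them upper-quartile factors and the fits without any 1 of the water + Dex mice, without ZnSO4 + PBS replicate 2 or 3, or without ZnSO4 + Dex replicate 1. Of the members that missed the threshold, Ndufv3, a subunit of the NADH-oxidising part of complex I, came next. It had 704, 667 and 624 in water + PBS, 726, 639 and 646 in water + Dex, 781, 683 and 839 in ZnSO4 + PBS and 708, 847 and 864 in ZnSO4 + Dex, with an averaged LFC of 0.24 (SE 0.071, adjusted p = 0.0506). The count of called members was 0 without any 1 of the water + Dex mice or without ZnSO4 + PBS replicate 3, 2 without water + PBS replicate 1 or ZnSO4 + Dex replicate 1, and 3 without water + PBS replicate 3.

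The largest ZnSO4 values belonged to low genes. Cox4i2 had 5 to 14 raw counts per library, with normalised counts of 4.9, 5.0 and 9.5 in water + PBS, 6.7, 5.4 and 7.6 in water + Dex, 9.4, 11 and 11.1 in ZnSO4 + PBS and 9.3, 13.5 and 12.8 in ZnSO4 + Dex. Its averaged LFC was 0.77 (SE 0.24, 95% interval 0.25 to 1.28, adjusted p = 0.0541), with Dex mice apart and PBS mice overlapping by 1 value. Ndufa4l2 had 4 to 24 raw counts, an LFC of 0.82 in PBS mice (95% interval -0.13 to 1.78, adjusted p = 0.329) and an averaged LFC of 0.45 (95% interval -0.23 to 1.13, adjusted p = 0.369). Summed pericyte markers (6 of 7 tested) were at 328 to 393 CPM in water + PBS and 396 to 419 in water + Dex. They were at 384 to 562 in ZnSO4 + PBS and 437 to 577 in ZnSO4 + Dex. In the averaged ZnSO4 effect 2 of the 6 were called upward and 0 downward, beside 6.24% and 6.52% of all genes. In PBS mice 0 were called upward and in Dex mice 1, beside 2.11% and 1.83% of all genes. Summed smooth muscle markers were at 1433 to 1903 CPM in water mice and at 1691 to 3024 in ZnSO4 mice. The part of these cells in the values of both genes was not tested. Sdhaf1, an assembly factor of complex II, had an LFC of 0.31 in Dex mice (95% interval -0.20 to 0.82). The complex I assembly factor Ndufaf5 had an averaged LFC of -0.34 (95% interval -0.61 to -0.076, adjusted p = 0.0871). Another, Ndufaf4, had one of -0.40 in PBS mice (95% interval -0.74 to -0.059, adjusted p = 0.178), with 323, 272 and 325 normalised counts in water + PBS and 260, 238 and 199 in ZnSO4 + PBS.

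Complex II, the link between the citric acid cycle and the chain, had no called member in any comparison. Sdha, the flavoprotein that oxidises succinate, had 6121, 5240 and 5523 normalised counts in water + PBS, 5907, 6143 and 6225 in water + Dex, 5533, 4721 and 4904 in ZnSO4 + PBS, and 5561, 5309 and 5480 in ZnSO4 + Dex. With Dex injection its ZnSO4 mice lay below its water mice, and with PBS they overlapped. Its averaged LFC was -0.16 for ZnSO4 (95% interval -0.29 to -0.024, adjusted p = 0.114) and 0.11 for Dex (-0.023 to 0.25, adjusted p = 0.232). Sdhb, the iron-sulphur subunit, had 2109 to 2337 in water + PBS, 2386 to 2398 in water + Dex, 1974 to 2224 in ZnSO4 + PBS and 2055 to 2353 in ZnSO4 + Dex, with an averaged LFC of -0.094 for ZnSO4 (adjusted p = 0.262) and 0.078 for Dex (adjusted p = 0.333). Sdhc, a membrane anchor, had 1983 to 2341, 2140 to 2306, 1820 to 2168 and 2056 to 2132 in the same order of groups, with -0.076 for ZnSO4 (adjusted p = 0.436) and 0.051 for Dex (adjusted p = 0.597). Sdhd, the other anchor, had 2855 to 3608, 3408 to 3491, 2437 to 2923 and 3087 to 3290, with -0.17 for ZnSO4 (adjusted p = 0.142) and 0.18 for Dex (adjusted p = 0.0963). All 4 averaged ZnSO4 values lay below 0 in this fit, with RLE and upper-quartile factors and without each library in turn.

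Complex III had no called member either. Its largest averaged values were those of Uqcrc2, a core protein, with an LFC of 0.17 for Dex (adjusted p = 0.107) and -0.15 for ZnSO4 (adjusted p = 0.173). In complex IV the largest averaged Dex value was that of Cox6b2, which was not called, with 42 to 77 raw counts per library and an averaged LFC of 0.35 (95% interval -0.017 to 0.71, adjusted p = 0.171). The muscle form Cox7a1 had an averaged LFC of 0.19 for Dex (95% interval -0.086 to 0.46, adjusted p = 0.328) and of 0.16 for ZnSO4 (-0.11 to 0.44, adjusted p = 0.43). The beta subunit Atp5b had 0.15 for Dex (95% interval -0.028 to 0.34, adjusted p = 0.223) and -0.10 for ZnSO4 (-0.29 to 0.078, adjusted p = 0.446). Atp5g2, with most of its sequence shared with other genes, had an LFC of 0.27 for Dex in ZnSO4 mice (adjusted p = 0.0513) and of 0.18 averaged (adjusted p = 0.0532).

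The effect of Dex was compared between the drinking groups by the interaction of ZnSO4 and Dex. No member was called, and 0% of all genes tested were (edgeR; 3 members at an unadjusted p under 0.05, all upward, against 2.6% of all genes upward and 2.38% downward; DESeq2 called 0 members). The 3 were Ndufab1, the mitochondrial acyl carrier protein, with 0.31 (95% interval 0.084 to 0.53), Ndufa1 with 0.25 and Ndufaf4 with 0.52 (0.031 to 0.999). The largest value in size was that of Ndufa4l2, -0.74 (95% interval -2.10 to 0.62), and Sdhaf1 had 0.35. For 82 of 93 members the interval lay within a 1.5-fold change, against 41.2% of all genes tested. Larger differences between the drinking groups therefore lay outside the interval for most members. Genes of similar level varied about as much as the members, as given above, and no share was taken over such genes.

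The genes around the chain were taken from lists by function. Of subunits and carriers under other names, 14 were tested, and 1 rose with Dex and 2 fell with ZnSO4 in the averaged effects. Over all genes tested, as given above, 10.4% rose and 11.2% fell with Dex, and 6.24% rose and 6.52% fell with ZnSO4. Higd1a, a small inner membrane protein that binds complex IV, had 308 ± 19.99 (SD, n = 3) normalised counts in water + PBS and 471 ± 29.2 in water + Dex, with an averaged Dex LFC of 0.66 (adjusted p = 0.000327). Cycs, cytochrome c, had 1026 ± 122 in water + PBS and 1075 ± 24.6 in water + Dex, against 719 ± 29.98 in ZnSO4 + PBS and 710 ± 95.6 in ZnSO4 + Dex. Its LFC for ZnSO4 was -0.51 in PBS mice (adjusted p = 0.0191) and -0.60 in Dex mice (adjusted p = 0.00879). Averaged over both, this fall in the carrier between complexes III and IV was -0.56 (adjusted p = 0.000677), beside -0.25 for Ndufs1. Cycs is known for many processed copies in the genome, and reads shared with them were not examined. Gpd2, the mitochondrial glycerol phosphate dehydrogenase, fell with ZnSO4 by 0.33 on the log2 scale (adjusted p = 0.0444).

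Of 38 tested assembly factors under other names, 2 rose and 3 fell with Dex, both smaller shares than the 10.4% and 11.2% of all genes. Lyrm7, an assembly factor of complex III, had an averaged LFC of 1.54 (adjusted p = 7.51e-05), and Lrpprc, which stabilises mitochondrial mRNA, one of 0.32 (adjusted p = 0.00825). Ttc19 (-0.33, adjusted p = 0.029), Coa7 (-0.31, adjusted p = 0.0366) and Coa3 (-0.18, adjusted p = 0.0414), factors of complexes III and IV, fell. With ZnSO4, 1 of the 38 rose and 2 fell, beside 6.24% and 6.52% of all genes. Uqcc3 of complex III rose (0.40, adjusted p = 0.0152), and the complex I factors Acad9 (-0.46, adjusted p = 0.00515) and Foxred1 (-0.26, adjusted p = 0.0282) fell. The complex I factors under the Ndufaf names had no called gene, as given above.

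Of 24 tested regulators of mitochondrial biogenesis, 1 rose and 2 fell with Dex, and 1 rose and 1 fell with ZnSO4. All 4 shares lie below those of all genes (10.4% and 11.2% for Dex, 6.24% and 6.52% for ZnSO4), and none was tested against them. Ppargc1a, which encodes PGC-1alpha, rose with both, by an averaged LFC of 0.72 for Dex (adjusted p = 0.000183) and of 0.56 for ZnSO4 (adjusted p = 0.0029). Its relative Ppargc1b (-0.64, adjusted p = 0.00699) and Myc (-0.57, adjusted p = 0.0025) fell with Dex, and Gabpb2, a subunit of GABP, fell with ZnSO4 by 0.18 (adjusted p = 0.0448). The medians of the respiratory chain genes over the same averaged effects were 0.092 and -0.035.

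Of 24 tested genes of the citric acid cycle and pyruvate dehydrogenase, 6 rose and 1 fell with Dex, beside 10.4% and 11.2% of all genes. Among those that rose were the dehydrogenase kinases Pdk4 (2.62, adjusted p = 0.000468) and Pdk2 (0.41, adjusted p = 0.00655), which inhibit the enzyme, its subunits Dlat (0.81, adjusted p = 1.95e-05) and Pdha1 (0.32, adjusted p = 0.00822), and the cycle enzyme Idh3g (0.23, adjusted p = 0.0107). The phosphatase Pdp1, which activates the enzyme, fell (-0.76, adjusted p = 2.91e-05). With ZnSO4, 2 of the 24 rose and 0 fell, beside 6.24% and 6.52% of all genes. The 2 were Pdk2 (0.40, adjusted p = 0.014) and Pdp1 (0.31, adjusted p = 0.0245).

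The subunits encoded in mitochondrial DNA had 1.83 to 2.11 counts per count of the nuclear members in water + PBS and 2.05 to 2.37 in water + Dex, against 2.68 to 2.86 in ZnSO4 + PBS and 2.73 to 2.79 in ZnSO4 + Dex, with no overlap between the 6 ZnSO4 and the 6 water mice. In the averaged ZnSO4 effect 6 of these 13 mitochondrial genes were called upward and 0 downward, beside 6.24% and 6.52% of all genes. The single call among the 93 nuclear members was downward. In PBS mice 2 of the 13 were called upward and in Dex mice 0, beside 2.11% and 1.83% of all genes. All 13 averaged ZnSO4 LFCs lay above 0 (median 0.33). Values after Dex also lay mostly above 0, in 11 of 13 genes for the averaged effect (median 0.19). There 1 was called upward and 0 downward, beside 10.4% and 11.2% of all genes. The Dex LFC was above 0 for 12 of 13 in water mice (median 0.27) and 9 of 13 in ZnSO4 mice (0.059), with 0 called in either. These genes share the mitochondrial DNA and the libraries, so these are not counts of independent genes.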

How the data were processed

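Ileum RNA was measured by RNA-seq in 12 mice, 3 in each of 4 groups. According to the study's methods and the submitters' processing notes, the authors made stranded libraries, aligned single-end reads with HISAT 2.0.4 to mm10 and counted reads per gene with featureCounts, leaving out reads with several positions, and tested with DESeq2. The annotation release and the strand setting of the counting are not given in the sources used here. The deposited values are raw counts per gene. Every column was matched to a sample by its name, and groups were taken from the labels.

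Counts were tested with edgeR 4.0.16 (R 4.3.3, limma 3.58.1) by its quasi-likelihood test, with filterByExpr (minimum count 10), TMM factors and 4 group means, and p-values were adjusted by Benjamini-Hochberg over 15938 genes. The averaged effects and the interaction are contrasts of the same fit. SE is the LFC divided by the root of F, and normalised counts are scaled to the mean effective library size of 11377723. With 3 mice a group, exact permutation of 1 value cannot go below p = 0.1, so p-values come from the fit across all genes. The script was tested on simulated data. Alternatives were RLE and upper-quartile factors, 2 other filters, DESeq2 1.42.0, the replicate number as a block, the groups compared alone, the further LFC cut-off of 0.8 and each library left out.

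Gene lengths, positions and shared exons are from GENCODE M21 (GRCm38). Named genes were the called members, the highest and lowest of each complex, the isoform pairs, members not tested, complex II in full and the 3 largest LFCs of each comparison; others were chosen after their values were seen. The members and lists were chosen with earlier results of these data known. Within a group the libraries differed by more than sampling noise (chi-square per degree of freedom 8.30 to 45.3). Beside the marker lists given above, summed markers ran over the 12 libraries from 7439 to 15228 CPM for ileal enterocytes, 12607 to 29510 for Paneth cells, 1310 to 1632 for cycling crypt cells, 46.6 to 539 for adipocytes and 225 to 336 for macrophages. The values of 1 gene of these lists are not reported here.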

Additional observations from a re-analysis of the deposited data

How the results depend on the processing

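The 10 called fold changes (8 members, Ndufc2 in 3 comparisons) kept their direction under every alternative run on them, which was not done for members that were not called, and Ndufc2 and Ndufa7 kept their Dex calls in all that used the adjusted p alone. With the LFC cut-off of 0.8, 0 members were called in any comparison. With all genes of at least 1 count, 2 members were called for averaged Dex (6 in the report), 1 for Dex in ZnSO4 mice (2 in the report) and 0 for averaged ZnSO4 (1 in the report). Averaged ZnSO4 gave 2 calls with RLE factors, with at least 10 counts in every library and with DESeq2, and 3 with upper-quartile factors, where Ndufs1 was lost and Cox4i2, Ndufa7 and Ndufv3 were called. Dex in ZnSO4 mice gave 1 call when only both groups compared were fitted. With the B cell covariate, chosen after seeing the data, averaged Dex gave 2 calls and Dex in ZnSO4 mice 1. Without each library in turn the calls ran from 2 to 9 for averaged Dex, from 1 to 2 for Dex in ZnSO4 mice and from 0 to 3 for averaged ZnSO4. The cause of these shifts was not tested. Across the single-member results, 63 alternatives lost a call.

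Residuals of same-numbered libraries correlated at a median of -0.056 (-0.36 to 0.46), and others at 0.023 (-0.47 to 0.44). With ranges this wide, the comparison cannot exclude that the replicate numbers pair the mice. With the replicate number as a block, 4 members were called for averaged Dex and 3 for Dex in ZnSO4 mice, with the other counts as in the report. At 3 mice a group, intervals of low genes such as Cox4i2 and Ndufa4l2 are wide.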
